A study of Mus musculus with 8 samples.

Results

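The 4 Hox gene clusters were followed along the gut of newborn mice, in both intestinal segments of wild-type pups and of pups lacking claudin-7, a junction protein. All non-control probes named Hoxa, Hoxb, Hoxc or Hoxd plus a paralog number were taken, which gave 39 Hox genes (44 probes) of 26510 named genes (55681 probes) on the array. RNA was measured on 8 Agilent single-colour arrays, 2 per group (numbered #2 and #3), from 129SV pups aged 3 days. The groups were untreated wild-type small intestine, wild-type large intestine, claudin-7 (Cldn7) knockout small intestine and knockout large intestine. Each sample was a whole-tissue fragment 2 cm long. The labels do not say from which point along a segment it was cut, in which cells Cldn7 was deleted, or which samples came from 1 pup. Fragments are bulk tissue, so fewer cells of a type and less RNA per cell cannot be told apart. No label gives the source of the spread between the 2 arrays of a group, so the p-values measure only the spread between these samples, which may be partly technical.

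Hox genes encode homeodomain transcription factors that pattern the body from head to tail. They lie in 4 clusters, and within a cluster the paralog number follows the gene order: genes of low number, at the 3′ end, are expressed further forward, and those of high number, at the 5′ end (the relatives of fly Abdominal-B), only towards the tail. In the embryonic gut this order is best known from the mesoderm that becomes muscle and connective tissue, and the genes of the highest paralog group mark the hindgut.

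On mouse build mm9 the probes of the Hoxa cluster lay on chromosome 6 (52105392 to 52209039), those of the Hoxb cluster on chromosome 11 (96057854 to 96228510), those of the Hoxc cluster on chromosome 15 (102759058 to 102867272) and those of the Hoxd cluster on chromosome 2 (74509248 to 74603059). The accession or symbol of all 44 probes gave the same gene in the RefSeq gene table. Because Hox genes share their homeobox, the probe sequences were read for shared stretches. A stretch coding for tryptophan, phenylalanine, glutamine and asparagine of the DNA-contacting helix (14 bases, searched on the probe strand) was present in 2 of the 44 probes. The probe of Hoxc11 is shown because it lies in the most conserved part of the family, with that stretch in capitals (mm9, plus strand, chr15:102787022-102787081).
Hoxc11: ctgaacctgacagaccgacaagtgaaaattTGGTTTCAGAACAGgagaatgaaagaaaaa
Over 941 pairs of probes of different Hox genes the longest shared run was 11 bases of 60, between Hoxc11 and either Hoxb4 or Hoxc12. Of the 2 Hoxb3 probes 1 also lists an accession of Hoxd3, and the other, brighter on average, stood for the gene in the comparisons.

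Promoter sequence was available for 22 of the Hox genes (24 start sites; RefSeq, GRCm38.p6, 250 bases before each start). These windows held a median of 12.5 CpG dinucleotides (range 2 to 35), against 6.0 over all 32851 windows in the table. Hoxa13 and Hoxd13, which differed strongly between the segments, had 35 and 31, the highest counts among the 24, and Hoxc4, which differed the other way, had 8. Other genes higher in large intestine had lower counts, such as Hoxa9 (3), Hoxd12 (10) and Hoxa11 (13). Hoxa5, not called over both genotypes, had 28, and Hoxd1, at background on all arrays, had 24. Whether the count goes with the segment difference was not tested. The 3 windows are shown with each CpG in capitals, Hoxa13 at chr6:52260881-52261130 on the minus strand, Hoxd13 at chr2:74667975-74668224 and Hoxc4 at chr15:103034145-103034394, both on the plus strand.
Hoxa13: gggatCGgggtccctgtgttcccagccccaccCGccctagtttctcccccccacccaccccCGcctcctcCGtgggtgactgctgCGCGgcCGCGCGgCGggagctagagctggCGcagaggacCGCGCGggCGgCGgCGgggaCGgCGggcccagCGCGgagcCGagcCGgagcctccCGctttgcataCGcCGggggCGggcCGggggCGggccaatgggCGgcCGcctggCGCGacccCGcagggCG
Hoxd13: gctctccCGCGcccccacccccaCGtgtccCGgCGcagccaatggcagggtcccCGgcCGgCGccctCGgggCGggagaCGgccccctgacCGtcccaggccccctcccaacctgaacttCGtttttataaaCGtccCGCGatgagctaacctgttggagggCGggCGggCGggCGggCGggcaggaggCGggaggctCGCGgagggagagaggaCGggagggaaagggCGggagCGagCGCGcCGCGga
Hoxc4: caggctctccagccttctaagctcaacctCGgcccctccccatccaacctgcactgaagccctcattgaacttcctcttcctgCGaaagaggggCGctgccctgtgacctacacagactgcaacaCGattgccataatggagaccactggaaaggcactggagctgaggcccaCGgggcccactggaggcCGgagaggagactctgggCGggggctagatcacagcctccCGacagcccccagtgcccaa
Sequences known to be bound by Cdx and Hox proteins were also counted, on both strands. TTTATG was found in 5 of the 24 Hox windows (20.8%, against 10.8% of all windows), TTTACG in 1 (4.17%, against 2.61%), TGATNNAT in 4 (16.7%, against 7.68%) and TAATTA in 2 (8.33%, against 4.84%). The windows of Hoxa13, Hoxd13 and Hoxc4 held none of the 4, and a match to such short letters is a description only.

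Levels are given as scaled signal, the scanner's processed signal after the 75th percentile of each array was set to a common value. Differences are log2 values from limma with their standard error, and a gene was called at a Benjamini-Hochberg adjusted p under 0.05 over 20750 genes. The level of the targeted gene was examined first. Cldn7 read 191737 and 197121 in wild-type small intestine, 14911 and 6203 in knockout small intestine, 167852 and 152732 in wild-type large intestine, and 13612 and 14382 in knockout large intestine (#2, then #3 in each pair). The difference, knockout minus wild type, was -4.34 ± 0.39 in small (limma, adjusted p = 0.00798) and -3.52 ± 0.39 in large intestine (adjusted p = 0.0342). It is not known whether the deletion covers its probe.

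Over both genotypes 5 of 6 small intestine markers were called lower and 3 of 5 large intestine markers higher in the samples labelled large intestine. The other 2, Car4 and Slc26a3, were called lower in large intestine in the wild type (89952 and 72150.3 in small against 30052 and 35416 in large intestine for Car4, 34737 and 31351 against 1454 and 2320.0 for Slc26a3). Gata4, a regulator of the upper small intestine, read at least 6262 in small and at most 124 in large intestine. Some arrays stood apart. Xist read 603 and 598 on the knockout #3 arrays and 18.4 to 42.4 on the other 6, and the Y-linked Ddx3y read 9.1 and 6.3 there against 5254 to 8142. Albumin (Alb) read 121367 on knockout large #2 and at most 139.9 elsewhere. The pancreatic amylase Amy2a5 read 15848 and 13388 on wild-type large #2 and knockout large #3 and at most 222 on the others. All 8 arrays shared 1 slide with a column for each group, and slide column and group cannot be told apart. The number of arrays limits the precision.

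Detection of the Hox genes differed by paralog number. Of the 16 genes of paralog groups 9 to 13, 4 to 7 were well above background on each small intestine array and 14 on every large intestine array. Of the 12 genes of groups 1 to 4, 10 were well above background on each of the 8 arrays. Of the 11 genes of groups 5 to 8, all were detected on every small intestine array and 10 on every large intestine array, the exception being Hoxc8. Hoxb1 and Hoxd1 were at background on all 8 arrays. Hoxc12 was above it on wild-type small #2 and knockout large #2 alone, and Hoxc13 on none by a spot without an outlier flag. These 4 genes were not tested, since testing required a signal well above background on the 2 arrays of some group, and 35 were. Of the 35, 10 passed through the large intestine alone, 1 (Hoxc8) through the small intestine alone and 24 through both.

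**Figure D1:**
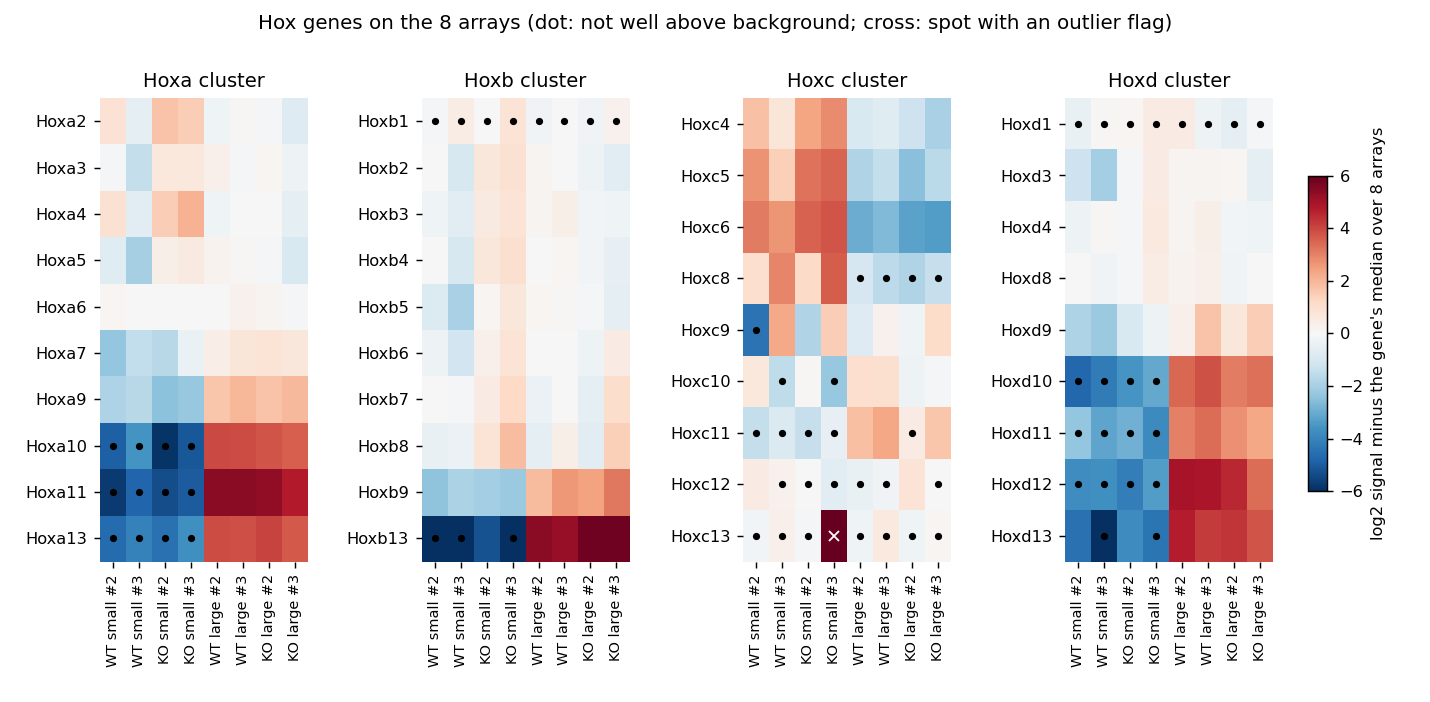
Signal of 38 of the 39 Hox genes on the 8 arrays, as log2 signal minus the gene's median over the arrays (colour, limited to 6 either way), ordered by paralog number from top to bottom in each cluster. Dots mark arrays on which a gene was not well above background and the cross a spot with an outlier flag. Genes of groups 10 to 13 in the Hoxa, Hoxb and Hoxd clusters are high on the 4 large intestine arrays, and Hoxc4 to Hoxc8 on the 4 small intestine arrays.

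Large minus small intestine over both genotypes, with 4 arrays a segment, gave 17 called Hox genes, 13 higher and 4 lower in large intestine (limma, additive fit of genotype and segment). Over all genes 18.6% were called in this comparison, 8.54% higher and 10.1% lower. The Hox median was 0.29, against 0.01 over all genes, with rises at the high numbers beside small or opposite differences at the low ones. The 10 genes that passed the filter through the large intestine alone were selected for signal there and are not counted as support. Of these 9 were called and Hoxc10 was not. Hoxc8, among the 4 lower, passed through the small intestine alone and is likewise not counted as support. Without any background filter 38 Hox genes were tested, and again 13 were higher and 4 lower (12.7% of all genes called). Among the 23 genes well above background on all 8 arrays 4 were higher and 3 lower (18.9% of all genes called). The 4 and 4 arrays did not overlap for 17 of the 35 genes, against 23.3% of all genes. That count holds genes that passed the filter through the large or the small intestine alone, whose separation this selection partly fixed. All 17 calls held in every alternative in which the gene was tested, leaving out each array included.

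Among the 35 tested genes Hoxb13 had the largest difference between the segments. Hoxb13, known from the hindgut and prostate, read 22.9 and 6.97 in wild-type small intestine, 92.8 and 12.2 in knockout small intestine, 145979.9 and 128039 in wild-type large intestine, and 193973 and 197181 in knockout large intestine. It was not well above background in wild-type small intestine, and in knockout small intestine only on array #2, while every large intestine value was 128039 or more. In the wild type it was at least 5055-fold higher in large intestine, taking the dim side as the higher of its own signal and the dimmest signal well above background on each array. The fitted difference was 13.40 ± 0.94 in the wild type (limma, adjusted p = 0.000546) and 12.50 ± 0.94 in the knockout (adjusted p = 0.000608).

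Hoxd13, which with Hoxa13 shapes the digits, the genital tubercle and the end of the hindgut, read 34.8 and 11.4 in wild-type small intestine, 56.0 and 36.4 in knockout small intestine, 19977 and 14123 in wild-type large intestine, and 14924 and 10394 in knockout large intestine. It was well above background on the #2 arrays of both small intestine groups and not on the #3 arrays. The dimmest signal well above background was 21.3 and 23.2 on these #2 arrays and 32.0 and 41.2 on the #3 arrays (wild type, then knockout). With 1 of 2 small intestine arrays measured in each genotype, the fitted differences of 9.72 ± 0.54 in the wild type and 8.11 ± 0.54 in the knockout rest partly on values at background (limma, adjusted p = 0.000226 and 0.000384). Hoxa13 read 4.36 and 6.38 in wild-type small intestine, 4.89 and 8.29 in knockout small intestine, 1605 and 1557 in wild-type large intestine, and 1786 and 1386 in knockout large intestine. None of its 4 small intestine values was well above background, and the large intestine was at least 60.6-fold higher in the wild type and 50.9-fold in the knockout. The second Hoxa13 probe gave 6.68 ± 0.23 over both genotypes and the first 8.09 ± 0.23.

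Groups 11 and 12 gave a like picture in the Hoxa and Hoxd clusters. Over both genotypes limma called Hoxa11 (10.41 ± 0.27, adjusted p = 3.2e-06), Hoxd11 (5.91 ± 0.27, 2.1e-05) and Hoxd12 (8.16 ± 0.33, 1.1e-05). Hoxa11, known from the uterus and the forearm bones, read 5.74 and 11.6 in wild-type small intestine, 7.73 and 9.82 in knockout small intestine, 13085 and 13127 in wild-type large intestine, and 12202 and 8255 in knockout large intestine, at least 502-fold higher in large intestine of the wild type and 325-fold of the knockout. Hoxd12 read 6.74 and 6.77 in wild-type small intestine, 4.9 and 8.54 in knockout small intestine, 2733 and 2589 in wild-type large intestine, and 1995 and 902 in knockout large intestine, with bounds of at least 102-fold and 43.4-fold higher. Its lowest large intestine value, on knockout #3, was still above every small intestine value. Hoxd11 read 24.5 and 14.1 in wild-type small intestine, 16.8 and 8.79 in knockout small intestine, 1010.5 and 1255 in wild-type large intestine, and 831 and 631 in knockout large intestine, at least 40.2-fold and 23.4-fold higher. Its second probe moved the same way (7.28 ± 0.33 over both genotypes, against 5.91 ± 0.27). Hoxc11 stayed near the floor: it read 5.04 and 7.21 in wild-type small intestine, 5.08 and 9.43 in knockout small intestine, 46.5 and 66.3 in wild-type large intestine, and 18.9 and 42.8 in knockout large intestine, and was not well above background on knockout large #2. It was called over both genotypes (2.62 ± 0.39, limma, adjusted p = 0.00372), with a bound of at least 1.4-fold. Within the wild type the difference was 3.20 ± 0.48 (adjusted p = 0.0076, and 0.0612 without wild-type large #3). Within the knockout it was 2.04 ± 0.48 (adjusted p = 0.0346), and not called without knockout large #3, knockout small #2 or either wild-type large array (adjusted p from 0.0643 to 0.163).

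Both tested group 10 genes of these clusters were called as well, Hoxa10 (8.67 ± 0.35, limma, adjusted p = 1.1e-05) and Hoxd10 (7.28 ± 0.36, 2.9e-05). Hoxa10, a regulator of uterine development, read 10.3 and 25.6 in wild-type small intestine, 5.3 and 9.11 in knockout small intestine, 4821 and 4701 in wild-type large intestine, and 4209 and 3739.8 in knockout large intestine. No small intestine array gave a value well above background, and the large intestine was at least 182-fold higher in the wild type and 128-fold in the knockout. Hoxd10 read 4.62 and 6.77 in wild-type small intestine, 10.4 and 14.8 in knockout small intestine, 1324 and 1753 in wild-type large intestine, and 1020.2 and 1201 in knockout large intestine, at least 58.4-fold and 35.8-fold higher. Hoxc10 was dim everywhere, between 11.7 and 115, overlapped between the segments and was not called (1.17 ± 0.61 over both genotypes, limma, adjusted p = 0.234).

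In group 9, 3 of the 4 genes were called higher in large intestine over both genotypes while detected in both segments, and Hoxc9 overlapped between the segments. Hoxa9, best known for its role in blood stem cells, read 128 and 149 in wild-type small intestine, 84.9 and 96.7 in knockout small intestine, 1452 and 1865 in wild-type large intestine, and 1536 and 1816 in knockout large intestine. It was well above background on all 8 arrays and higher in large intestine by 3.57 ± 0.22 in the wild type and 4.20 ± 0.22 in the knockout (limma, adjusted p = 0.00033 and 0.000152). Its second probe gave 3.54 ± 0.16 over both genotypes, against 3.89 ± 0.19 for the first. Hoxb9 read 119 and 167 in wild-type small intestine, 153 and 133 in knockout small intestine, 2319 and 3834 in wild-type large intestine, and 3354 and 5664 in knockout large intestine, higher by 4.41 ± 0.36 and 4.93 ± 0.36 (adjusted p = 0.001 and 0.000541). Hoxd9 read 62.8 and 48.9 in wild-type small intestine, 123 and 186 in knockout small intestine, 282 and 753 in wild-type large intestine, and 369.8 and 648 in knockout large intestine. It was called in the wild type (3.06 ± 0.51, adjusted p = 0.0109) and over both genotypes (2.38 ± 0.43, adjusted p = 0.00856), but not in the knockout (1.70 ± 0.51, adjusted p = 0.0685). Without wild-type large #3 or wild-type small #3 its wild-type adjusted p became 0.0518 and 0.0536.

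**Figure D2:**
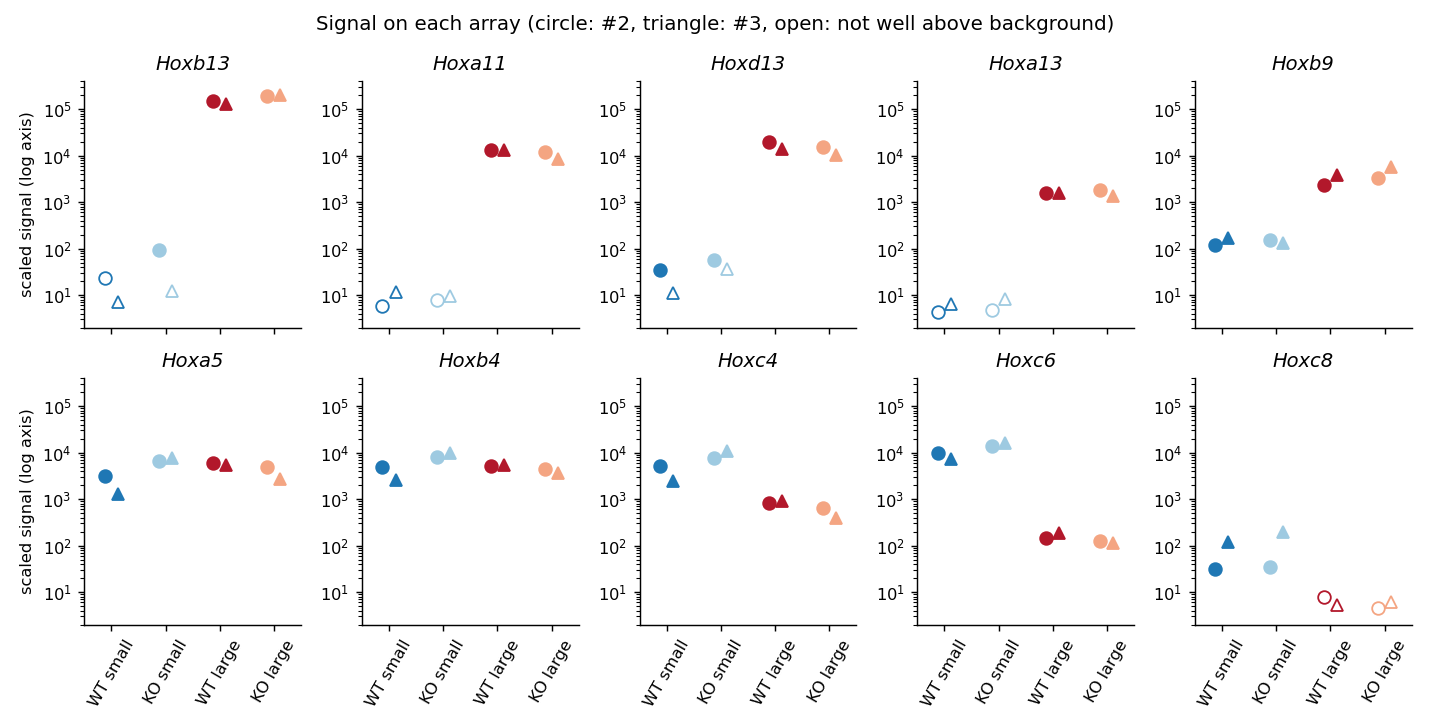
Scaled signal (log axis) of 10 Hox genes on each array, with circles for #2 and triangles for #3, filled where the signal was well above background and open where it was not. Hoxb13, Hoxa11, Hoxd13, Hoxa13 and Hoxb9 are high in both large intestine groups, Hoxc4, Hoxc6 and Hoxc8 in both small intestine groups, and Hoxa5 and Hoxb4 overlap between the segments.

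The Hoxc cluster ran the other way at its low numbers. Hoxc6, a thoracic patterning gene, read 9899 and 7243 in wild-type small intestine, 13524 and 15886 in knockout small intestine, 146 and 184 in wild-type large intestine, and 126 and 113 in knockout large intestine. It was lower in large intestine, with differences of -5.69 ± 0.24 in the wild type and -6.94 ± 0.24 in the knockout (limma, adjusted p = 9e-05 and 5.7e-05), yet stayed well above background on all 8 arrays. Hoxc5 read 1934 and 824 in wild-type small intestine, 2891 and 3448 in knockout small intestine, 87.1 and 110.5 in wild-type large intestine, and 53.4 and 97.8 in knockout large intestine, with differences of -3.69 ± 0.46 and -5.45 ± 0.46 (adjusted p = 0.00394 and 0.000929). Hoxc4 read 5067 and 2489 in wild-type small intestine, 7752 and 10650.1 in knockout small intestine, 803 and 916 in wild-type large intestine, and 631 and 396 in knockout large intestine, with differences of -2.05 ± 0.40 and -4.18 ± 0.40 (adjusted p = 0.0175 and 0.00147). The wild-type call of Hoxc4 did not hold without wild-type large #2 (adjusted p = 0.103) or #3 (0.0879).

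Hoxc8, which specifies thoracic vertebrae, read 31.4 and 118 in wild-type small intestine, 34.5 and 191 in knockout small intestine, 7.75 and 5.23 in wild-type large intestine, and 4.46 and 6.07 in knockout large intestine. It was at background on the 4 large intestine arrays, so the small intestine was at least 2.74-fold higher in the wild type and 3.37-fold in the knockout. Over both genotypes its difference was -3.61 ± 0.61 (limma, adjusted p = 0.00675). The calls within 1 genotype did not hold without either large intestine array of that genotype or its small intestine array #3, nor without either large intestine array of the other genotype (adjusted p from 0.0613 to 0.20 in these fits). Its paralogs Hoxb8 and Hoxd8 differed by -0.33 ± 0.52 and 0.06 ± 0.21 over both genotypes and were not called.

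Hoxa7 was the 1 gene of groups 5 to 8 higher in large intestine in both genotypes. It read 2629 and 4654 in wild-type small intestine, 4092 and 9848 in knockout small intestine, 17068 and 21673 in wild-type large intestine, and 22721 and 20577 in knockout large intestine, with differences of 2.46 ± 0.46 and 1.77 ± 0.46 (limma, adjusted p = 0.0151 and 0.0457) and 2.11 ± 0.34 over both (adjusted p = 0.00506). The call within the wild type did not hold without wild-type large #2, wild-type large #3 or wild-type small #2, and that within the knockout not without knockout small #2 or any large intestine array (adjusted p from 0.0537 to 0.164). The remaining genes of groups 1 to 8 in the Hoxa, Hoxb and Hoxd clusters had no call over both genotypes. Hoxa6, with a dim probe, was the flattest, at 76.4 to 98.6 on all 8 arrays. Hoxd8 ranged from 1285 to 2062 and Hoxd4 from 264 to 490.0. Hoxa3 ranged from 2315 to 9824, Hoxa5, needed for gut and lung maturation, from 1301 to 7444, and Hoxb4 from 2599.6 to 9715. For these 3 and for Hoxb6 (1121 to 4418) the lowest array was wild-type small #3 and the highest knockout small #3. Hoxb7 ranged from 2187 to 7466.

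Within the wild type, 19 Hox genes were called between the segments, 15 higher and 4 lower in large intestine (19.7% of all genes called, 9.72% higher and 9.93% lower). Within the knockout 21 were called, 12 higher and 9 lower (15.9%, 8.31% and 7.6%), and 16 genes were called in both. Of the 35 genes, the arrays of the segments did not overlap for 27 in the wild type and 27 in the knockout, against 69.3% and 61.3% of all genes. These counts too hold the genes that passed the filter through the large or the small intestine alone. Besides Hoxd9, Hoxd3 and Hoxb5 were called higher in the wild type and not in the knockout. In this wild-type comparison 4 of 7 smooth muscle, 1 of 6 enteric neuron, 1 of 5 fibroblast and 1 of 5 body wall or urinary tract markers were also called higher, and their part in it was not tested. Hoxd3 read 121 and 70.8 in wild-type small intestine, 270.3 and 404 in knockout small intestine, 322 and 321 in wild-type large intestine, and 309.7 and 199.97 in knockout large intestine, a difference of 1.79 ± 0.36 in the wild type (limma, adjusted p = 0.0191) and -0.41 ± 0.36 in the knockout (adjusted p = 0.449). Hoxb5, active in the neural crest that forms the enteric nervous system, read 6660.3 and 3029 in wild-type small intestine, 12862 and 18531 in knockout small intestine, 12600.0 and 12362 in wild-type large intestine, and 11047 and 7883 in knockout large intestine, a difference of 1.47 ± 0.40 in the wild type (adjusted p = 0.0471) and -0.73 ± 0.40 in the knockout (adjusted p = 0.246). Without wild-type small #3 or either wild-type large array the wild-type adjusted p was 0.0854 to 0.104 for Hoxd3 and 0.174 to 0.178 for Hoxb5, and without any of the 4 knockout arrays that of Hoxb5 was 0.0518 to 0.0635.

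Hoxa2, Hoxa4, Hoxb2 and Hoxb3 were called lower in large intestine in the knockout and not in the wild type. Hoxa2 acts in the hindbrain and cranial neural crest of the embryo. It read 1339 and 495 in wild-type small intestine, 2474 and 2053 in knockout small intestine, 614 and 791 in wild-type large intestine, and 702 and 430.3 in knockout large intestine. Its knockout difference was -2.04 ± 0.48 (limma, adjusted p = 0.0356), and the 2 knockout small intestine arrays were the highest. Hoxa4 read 845 and 281 in wild-type small intestine, 1234 and 1886 in knockout small intestine, 369 and 459 in wild-type large intestine, and 434 and 309 in knockout large intestine (-2.06 ± 0.52, adjusted p = 0.0425). Hoxb2 read 3744 and 1904 in wild-type small intestine, 5816 and 6799 in knockout small intestine, 4067 and 3565 in wild-type large intestine, and 2948 and 2266 in knockout large intestine (-1.28 ± 0.34, adjusted p = 0.0492), and Hoxb3 read 1368 and 1014 in wild-type small intestine, 2374 and 2957 in knockout small intestine, 1820.3 and 2123 in wild-type large intestine, and 1495 and 1401 in knockout large intestine (-0.87 ± 0.23, adjusted p = 0.0493). In a fit of every probe the second Hoxb3 probe gave -0.76 ± 0.33 and the first -0.87 ± 0.24. Neither was called there (limma, adjusted p = 0.178 and 0.062). None of the 4 calls held in all fits that left out 1 array. Without knockout large #3, for example, the adjusted p was 0.185 for Hoxa2, 0.202 for Hoxa4, 0.231 for Hoxb2 and 0.213 for Hoxb3. Each also lost its call without knockout small #2 or #3, knockout large #2 or either wild-type large array. That of Hoxb3 was also lost without either wild-type small array (adjusted p = 0.0540).

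The order of the differences along the clusters depended on which genes were taken. Among the 24 genes that passed the background filter in both segments, a subset added after the data were seen, Spearman's rho of the log2 difference against paralog number was 0.35 in the wild type and 0.62 in the knockout. Over all 35 tested genes it was 0.71 and 0.81, but this holds the 10 genes of groups 10 to 13 that passed through the large intestine alone. In the Hoxc cluster the difference ran downwards from Hoxc4 to Hoxc6 before it turned. By cluster, over the 35 genes, wild type then knockout, rho was 0.89 and 0.89 for Hoxa (11 genes), 0.33 and 0.78 for Hoxb (9), 0.75 and 0.86 for Hoxc (7) and 0.90 and 0.95 for Hoxd (8). These are descriptions across genes that share the same arrays, not independent replicates. The 2 genotypes' differences, from different arrays, correlated at r = 0.951 (Spearman's rho 0.784) across the 24 genes that passed in both segments, and at r = 0.985 (rho 0.922) with the filter-selected genes included.

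**Figure D3:**
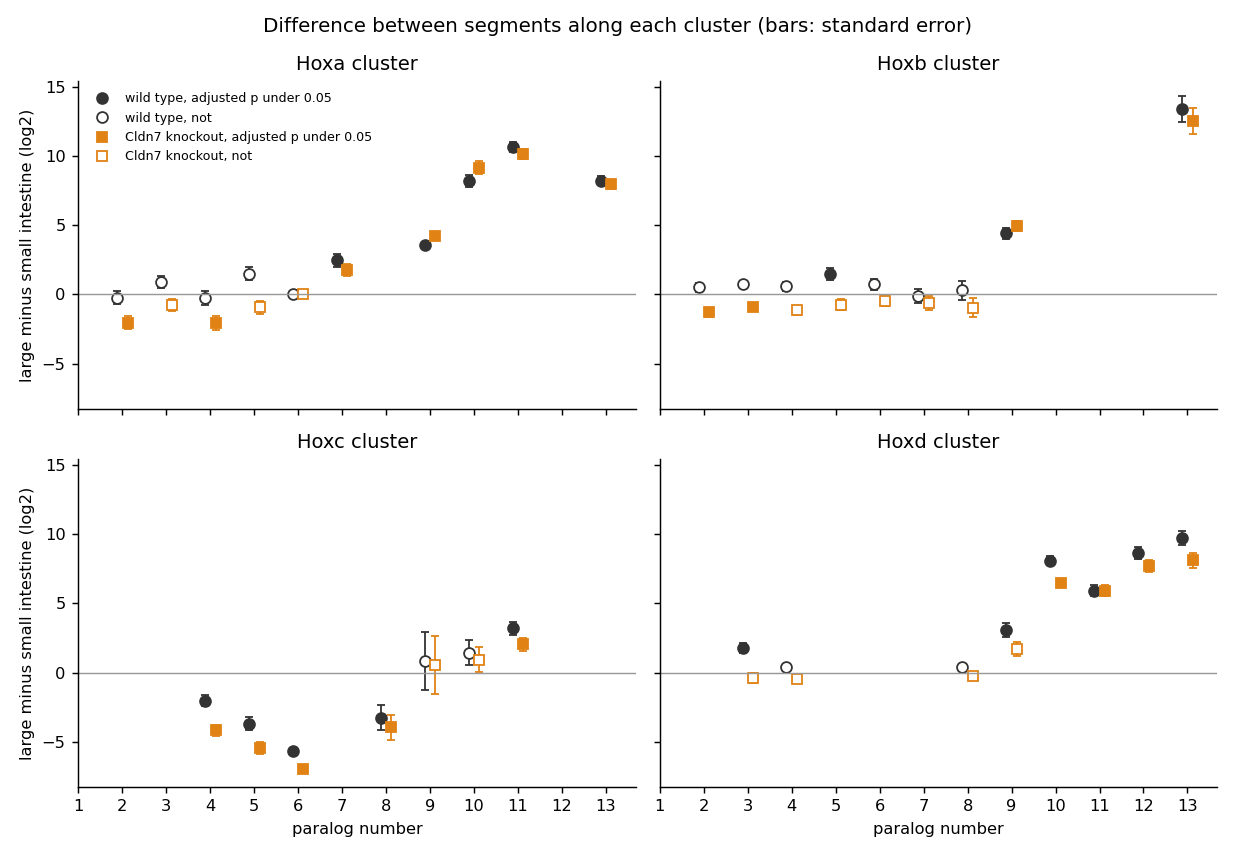
Large minus small intestine (log2) against paralog number in each cluster, wild type (circles) and knockout (squares), with standard errors, filled where adjusted p was under 0.05. The Hoxa, Hoxb and Hoxd clusters rise to fitted values of 13.40 at Hoxb13 and 9.72 at Hoxd13 in the wild type. Each of these 2 genes had at least 1 small intestine array at background. The Hoxc cluster starts below 0 in both genotypes, with Hoxc4 to Hoxc6 called. In the knockout the genes of groups 1 to 4 lie below 0 in every cluster.

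Within the small intestine Hoxc9 differed more between arrays #2 and #3 of a group than between the genotypes. Hoxc9 read 6.52 and 669 in the wild type and 40.1 and 394 in the knockout (#2, then #3). In large intestine it read 81.5 and 168 in the wild type and 117 and 298 in the knockout, so the segments overlapped. Its difference over both genotypes had the largest standard error of the Hox genes, 0.70 ± 1.41 (limma, adjusted p = 0.774). Hoxc8 and Hoxa7 were also higher on #3 in both genotypes. Hoxc10, Hoxd13 and Hoxb13 went the other way in both genotypes. None of them was well above background on #3, where the dimmest signal well above background was higher than on #2. For Hoxc10 the values were 89.4 and 19.7 in the wild type and 60.7 and 11.7 in the knockout. Fabp6, the bile acid binding protein of the lower small intestine, read 57.6 and 10609 in the wild type and 19.3 and 8893 in the knockout. Gata4 read 24375 and 19262, and 11820.2 and 6262. In knockout large intestine Hoxb7 and Hoxb8 read 2187 and 565 on #2 and 6613 and 2394 on #3, where Fabp6 read 1798 and 9509.7. In 3 of the 4 groups the array with more Hoxc9 also had more Fabp6, and in wild-type large intestine it had less (1222 and 972). Fabp6 was not well above background on knockout small #2. The part of the point at which a fragment was cut was not tested.

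The knockout was then compared with the wild type within a segment. In the small intestine 3 Hox genes of low number were called higher in the knockout and none lower: Hoxd3 (1.84 ± 0.36, limma, adjusted p = 0.0371), Hoxb5 (1.78 ± 0.40, 0.0453) and Hoxb3 (1.17 ± 0.23, 0.038). Over all genes 9.49% were called, 6.03% higher and 3.46% lower, so 3 of 35 is near the background. In a fit of every probe the second Hoxb3 probe was not called (1.56 ± 0.33, limma, adjusted p = 0.0511). The first was called there (1.17 ± 0.24, adjusted p = 0.0483). The knockout was above the wild type for 29 of the 35 genes, with a median of 1.15, against -0.11 over all genes. All 10 tested genes of groups 1 to 4 lay above 0 (0.37 to 1.84), and the 14 of groups 9 to 13 ranged from -1.23 to 1.45. The arrays did not overlap for 21 of the 35 genes, against 59.2% of all genes. These counts hold genes at background in the small intestine. Of the 16 genes of groups 9 to 13, 9 were at background on both wild-type small intestine arrays and 9 on both knockout ones. Hoxd10 and Hoxa10, which gave the median of 1.15 and the lowest value, were among those in both genotypes. Among the 23 genes well above background on all 8 arrays the knockout was above for 21, with a median of 1.29. None of the 3 calls held without wild-type small #3, knockout small #3 or any large intestine array (adjusted p from 0.0501 to 0.191), and then no Hox gene was called. Without wild-type small #2 13 were higher and 1 lower (9.33% of all genes called), and without knockout small #2 4 were higher (18.6%).

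Signals of muscle, nerve and fibroblast markers were measured beside these genes. The summed scaled signal of 7 smooth muscle markers was 960245 and 532527 in wild-type and 1464425 and 1810208 in knockout small intestine, and 1516465 to 1798763 on the large intestine arrays. All 7 were above 0 in knockout minus wild type of the small intestine and none was called, with a median of 1.22. Of 6 enteric neuron markers, whose sum was 52214 and 31465 in wild-type and 83945 and 135359 in knockout small intestine, 4 were called higher. Of 5 fibroblast markers 3 were called higher. None of 8 epithelial markers was called in either direction. Over all genes 6.03% were called higher and 3.46% lower, so no call among 8 genes does not show that the epithelium was unchanged. No marker of these 4 lists was below background on any array. On wild-type small #3, the lowest array of most Hox genes of low number, the median deviation from the 8-array mean was -0.96 for 11 Hox genes of groups 1 to 5 in the Hoxa, Hoxb and Hoxd clusters, -1.37 for smooth muscle and -1.21 for enteric neuron markers (log2). On knockout small #3 the same medians were 0.92, 0.43 and 1.17. The knockout #3 arrays are also those with high Xist, and the part of tissue makeup or sex in the result was not tested.

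**Figure D4:**
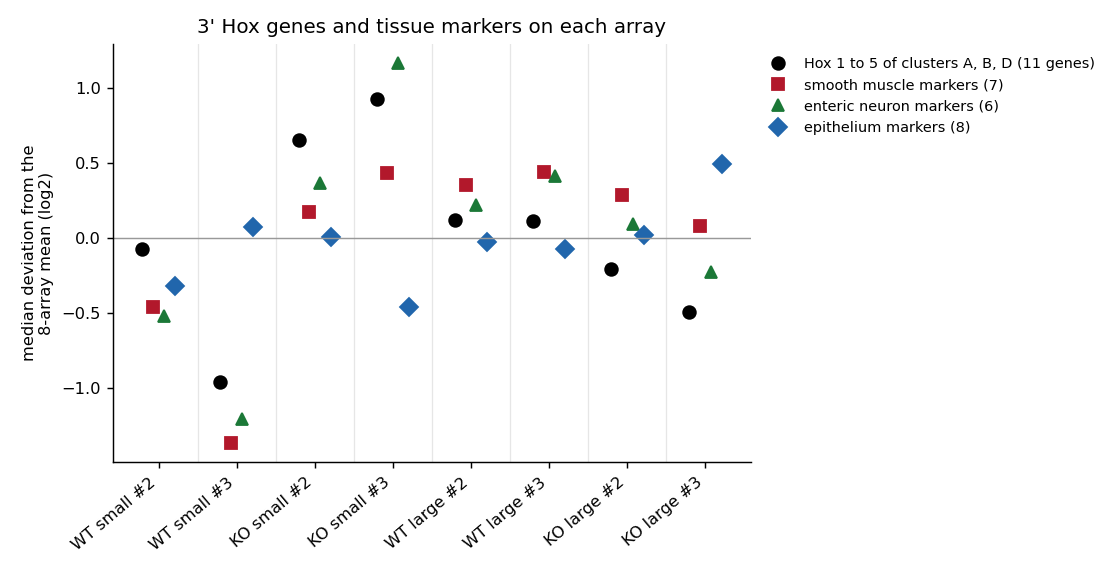
Median log2 deviation from the 8-array mean of 11 Hox genes of paralog groups 1 to 5 (Hoxa, Hoxb and Hoxd clusters; black circles) and of smooth muscle (squares), enteric neuron (triangles) and epithelium (diamonds) markers on each array. The Hox, smooth muscle and neuron medians are lowest on wild-type small #3, while the epithelium median there is 0.07.

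In large intestine no Hox gene was called between the genotypes in limma (0 also at an unadjusted p under 0.05; 0.304% of all genes called, 0.154% higher and 0.149% lower). The differences ranged from -1.16 (Hoxc10) to 0.68 (Hoxc9), with a median of -0.37. Hoxb13 differed by 0.52 ± 0.94, Hoxd13 by -0.43 ± 0.54, Hoxa13 by -0.01 ± 0.32 and Hoxd12 by -0.99 ± 0.42, the last with the lowest adjusted p (0.385). The arrays did not overlap for 19 of the 35 genes, against 54.9% of all genes. The difference of the segment contrast between the genotypes, knockout minus wild type, was tested as an interaction in limma. No Hox gene passed (0.149% of all genes called, 0.0964% higher and 0.053% lower), with 14 at an unadjusted p under 0.05 and a lowest adjusted p of 0.100. The calls made in 1 genotype alone are thus not shown to differ between the genotypes. All 10 tested genes of groups 1 to 4 lay below 0 in this contrast (-2.20 to -0.82, against a median of 0.14 over all genes). This sign follows from the knockout minus wild type differences on the same arrays. For these 10 genes they were above 0 in small and below 0 in large intestine.

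Genes that work beside the clusters were taken as lists, to be read against the 18.6% of all genes called over both genotypes (8.54% higher, 10.1% lower). Of 4 tested noncoding RNAs of the clusters 2 were higher in large intestine over both genotypes and none lower. Hoxa11os, transcribed opposite Hoxa11, read 101 and 93.6 in wild-type small intestine, 92.6 and 98.6 in knockout small intestine, 36563 and 36294 in wild-type large intestine, and 32737 and 23388 in knockout large intestine, a difference of 8.36 ± 0.17 (limma, adjusted p = 1.2e-06). Hoxb5os read 1351 and 339 in wild-type small intestine, 2335 and 1876 in knockout small intestine, 6922 and 5638 in wild-type large intestine, and 4484 and 3904 in knockout large intestine (2.10 ± 0.57, adjusted p = 0.0405). Hoxaas3 was called in the wild type (2.09 ± 0.43, adjusted p = 0.0208) and not over both genotypes (0.93 ± 0.52, adjusted p = 0.257), and Hoxd3os1 differed by -0.32 ± 0.20 (adjusted p = 0.308).

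Of 9 tested neighbours of the clusters 2 were higher and none lower over both genotypes, a count near the 18.6% called over all genes. Evx1, a homeobox gene beyond the 5′ end of the Hoxa cluster, read 5.09 and 7.33 in wild-type small intestine, 5.08 and 9.64 in knockout small intestine, 1677 and 882 in wild-type large intestine, and 1385 and 1224 in knockout large intestine. Like Hoxa13 it was not well above background on any small intestine array, and the large intestine was at least 46.6-fold higher in the wild type and 42.1-fold in the knockout. Calcoco2, an autophagy receptor next to the Hoxb cluster, differed by 1.84 ± 0.28 (limma, adjusted p = 0.00413). Skap1 and Snx10, also neighbours, differed by 0.71 ± 0.27 and -0.11 ± 0.20 and were not called.

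The TALE homeodomain proteins of the Pbx, Meis and Pknox families bind DNA together with Hox proteins. None of 9 was called over both genotypes, and 1 was called in the wild type: Pbx3 (1.30 ± 0.33, limma, adjusted p = 0.0397), with -0.26 ± 0.33 in the knockout. Meis1 and Meis2 differed by -0.01 ± 0.45 and 0.15 ± 0.45 over both genotypes. Of the 4 tested Cdx and ParaHox genes 1 was higher and 1 lower. Cdx1, an upstream regulator of Hox genes, read 126003 and 133057 in wild-type small intestine, 64999 and 42192 in knockout small intestine, 193420.4 and 185236 in wild-type large intestine, and 206806 and 240348 in knockout large intestine (1.32 ± 0.33, adjusted p = 0.032). Cdx2 read 29131 and 44178 in wild-type small intestine, 13606 and 8552 in knockout small intestine, 16113 and 15847 in wild-type large intestine, and 21289 and 35486 in knockout large intestine and was not called over both genotypes (0.09 ± 0.52, adjusted p = 0.926). Pdx1, which marks duodenum and pancreas, was lower in large intestine (-3.25 ± 0.44, adjusted p = 0.00245), and Gsx2 was not called (-0.08 ± 0.22). In knockout minus wild type of the small intestine Cdx1 (-1.31 ± 0.25, adjusted p = 0.0364) and Cdx2 (-1.73 ± 0.36, 0.0399) were called lower and Pdx1 higher (3.29 ± 0.64, 0.0374).

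Retinoic acid turns on Hox genes of low number in the embryo. Of 17 tested genes of its pathway 3 were lower and none higher over both genotypes, near the 18.6% called over all genes. Aldh1a3, which makes retinoic acid, read 26137 and 13483 in wild-type small intestine, 28973 and 24147 in knockout small intestine, 3380.4 and 3986 in wild-type large intestine, and 4842 and 7414 in knockout large intestine (-2.25 ± 0.25, limma, adjusted p = 0.00106). Cyp26a1, which degrades it, was called in the wild type (2.10 ± 0.51, adjusted p = 0.0339) but was well above background on only 3 arrays, and the receptors Rarg and Rxra differed by 0.39 ± 0.21 and -0.02 ± 0.33 over both genotypes. Polycomb proteins keep Hox genes silent and Trithorax proteins keep them active. Of 21 tested genes of both groups none was called in the wild type (19.7% of all genes called), and 2 were lower over both genotypes (18.6%). Cbx2, Pcgf2 and Suz12 differed by -0.42 ± 0.15, -0.36 ± 0.17 and -0.30 ± 0.21. In knockout minus wild type of the small intestine 3 of the 21 were lower (9.49% of all genes called, 3.46% lower), Cbx2 (-0.93 ± 0.20) and Pcgf2 (-1.05 ± 0.19) among them, and in large intestine none.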

How the data were processed

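Total RNA of 8 intestinal samples was hybridised to Agilent 8x60K mouse arrays with 1 colour (Cy3), per the labels. Per the file headers, the deposited spot intensity comes from Feature Extraction 10.7.3.1, with background subtraction and detrending inside an array but no scaling across arrays, and places the probes on mm9. The deposited normalized table holds probe intensity on a linear scale (column medians 159.0 to 160.9 over the non-control probes). Over the probes kept here it correlated with the scanner values at r of 0.996 to 0.998 on the log2 scale. Its background step is unknown, and it was used as an alternative. The submitters' processing notes name R 3.3.0, and no further step is given in the sources used here.

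Here the 75th percentile of each array (signal 2643 to 3572, over 59305 non-control spots) was subtracted on the log2 scale. Outlier-flagged spots (148 to 312 an array) were removed and a probe's spots averaged. A probe was kept if some group had it well above background on its 2 arrays, and the brightest probe stood for a gene. The fits used limma 3.58.1 under R 4.3.3 and all 8 arrays, with 4 residual degrees of freedom, or 5 in the additive fit of genotype and segment, and the script was tested on simulated data. The precision rests on 2 arrays a group.

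The Hox genes, the gene lists and the tests were chosen with earlier results of these data known. All Hox genes are accounted for, those called in any comparison are given on every array, and up to 4 members of each related list, with the smallest p in wild-type large minus small intestine, are named. Some items that these rules select are not reported here. The alternatives were normexp background correction (offset 50), quantile normalization, the 75th percentile over probes detected on all arrays, the deposited table, no or a stricter background filter, flags ignored, other probe rules, a trended robust prior, the compared groups alone, replicate blocks, a threshold of 2-fold, and leaving out each array in turn.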

Additional observations from a re-analysis of the deposited data

Results flagged for a closer look

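Hoxc13 was not well above background on any array by a spot free of outlier flags, and was left out of the comparisons. Its single spot on knockout small #3 read a scaled signal of 502 and carries the scanner's flag for a non-uniform spot. On the other 7 arrays Hoxc13 read 4.7 to 8.61, at background. It was singled out because the only signal of the gene lies in data that no comparison used.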

How the results depend on the processing

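The 17 Hox calls between segments over both genotypes held in every alternative that tested the gene. Within 1 genotype 12 of 19 (wild type) and 13 of 21 (knockout) did so, none of the 3 knockout calls in small intestine did, and no call reversed. The segment counts include genes that passed the background filter through the large or the small intestine alone, which are not counted as support. Those genes were not tested when probes were kept only if all 8 arrays showed them above background. With this stricter filter 23 Hox genes were tested by construction. Of these 7 were called over both genotypes (18.9% of all genes called) and 10 in the wild type (21.3%). In the knockout 12 were called (17.7%), and 6 in knockout minus wild type of the small intestine (13.5%). With each array left out the counts were 17 to 19 over both genotypes, 12 to 20 in the wild type and 13 to 21 in the knockout. The small intestine count of 3 ranged from 0 to 14 with an array left out. The share of all genes called varied between these fits as well. The small intestine count was 7 with normexp (13.1% of all genes called), 6 with quantile normalization (11.7%) and 6 with the deposited table (13.2%). It was 5 with a trended robust prior (12.1%), 0 without a background filter (1.62%) and 0 with the 2 groups alone (0.0867%). The cause was not tested. The counts for knockout large intestine and for the difference between genotypes were 0 in all alternatives run. The labels do not say whether the numbers shared by the groups pair the samples. The differences of array #3 minus #2 correlated between groups at 0.018 to 0.261 across genes. This cannot decide whether samples came from 1 pup. Both knockout #3 arrays, and no others, had high Xist. With the replicate block the counts were 19, 20, 17 and 1 (wild type, knockout, both, small intestine). The shares of all genes called were then 19.0%, 17.4%, 17.6% and 5.57%. With the replicate block within genotype the counts were 15, 16 and 17 for the segment comparisons (11.4%, 10.4% and 12.3% of all genes). Signals near background limit the dim genes Hoxc8, Hoxc10 and Hoxc11.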
